A study of Mus musculus with 25 samples.

Results

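Oxidative phosphorylation (OXPHOS) subunit mRNAs were followed in mouse jejunum across 25 libraries, 5 in each of 5 groups. Members were all gene rows whose symbol fits the naming of a respiratory complex subunit: Nduf (complex I), Sdha to Sdhd (complex II), Uqcr (complex III), Cox4 to Cox8 (complex IV), Atp5 (complex V), and the protein-coding genes of the mitochondrial genome (mt-Nd, mt-Co, mt-Cytb, mt-Atp). The naming took 115 of the 35723 genes with a count, 102 of them nuclear and 13 mitochondrially encoded, and 107 of the 22131 genes that were high enough to test. The 8 members not tested were all nuclear. Of the 102 nuclear rows, 17 were pseudogene or non-coding rows, and 11 of these were tested. Cytochrome c1, cytochrome c and the acyl carrier subunit of complex I are named Cyc1, Cycs and Ndufab1 and fall outside these names.

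The labels give jejunum as the tissue and the treatment, with no strain, dose, litter or sex. Pups were assigned at postnatal day 14, and the suckling controls (Control) were taken at day 21. All other pups were weaned at day 15, either with no supplement (EW) or with oligosaccharides of the kind found in human milk. EW+LNnT pups received lacto-N-neotetraose, EW+2'-FL pups received 2'-fucosyllactose, and EW+HMOs pups received the pair together. Their own day of sampling is not given in the sources used here, so age and weaning cannot be told apart. No label ties libraries to single animals, and p-values therefore reflect the spread among these 25 samples, which may be technical in part. Libraries are named by group and label number, as in Control 3.

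OXPHOS passes electrons from NADH and succinate through complexes I to IV of the inner mitochondrial membrane and uses the proton gradient built on the way to drive ATP synthase, complex V. Complexes I, III, IV and V hold subunits of both genomes, whereas complex II is nuclear throughout. The mitochondrial genes are transcribed as long polycistronic RNAs that are cut at intervening tRNAs, while each nuclear gene has its own promoter. Absorptive enterocytes, the main cells of the jejunal lining, use this machinery to power nutrient uptake.

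Depth ran from 58732979 to 89589183 counts per library. The 9 enterocyte markers were present in every group, with summed levels of 22802 to 34710 CPM (counts scaled to library size, with TMM factors), as small intestine has. They do not tell jejunum from its other segments. Summed smooth muscle markers were 3402 CPM in EW+2'-FL 2 and at most 1303 in any other library. Pancreatic acinar markers summed to 6925 CPM in EW+LNnT 1, 6563 in Control 3, 2705 in EW+2'-FL 5, 2325 in EW+LNnT 2, 1667 in EW 1 and 683 in Control 2, and to 0.3 to 2.22 in the others. EW+LNnT 1, EW+LNnT 2, Control 3 and EW 1 are among the libraries on which results below rest, and the part of pancreatic RNA in them was not tested. Xist, which coats the inactive X chromosome of female cells, was found without Y-linked transcripts in 4 of 5 control libraries and together with them in the other. Y-linked transcripts were found without Xist in 4 EW, 3 EW+HMOs, 4 EW+2'-FL and 2 EW+LNnT libraries, each at 10 CPM or more. Sex transcripts and group thus moved together between the controls and the weaned groups, and their part in the results below was not tested. In bulk tissue, fewer cells of a type and less RNA per cell cannot be told apart.

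Per unit of transcript length, the mitochondrially encoded mRNAs stood far above the nuclear ones. In FPKM, the authors' unit of fragments scaled to transcript length and depth, the 13 mitochondrial members had a median level of 5340 over all libraries, from 456.1 for mt-Nd3 to 16467 for mt-Co1, the catalytic core of cytochrome c oxidase. The 83 tested nuclear coding members had a median level of 58.94 FPKM, from 0.1995 for Cox6a2, a heart and muscle isoform, to 620.6 for Atp5f1a, the alpha subunit of ATP synthase. Within a library the mitochondrial median was 84.5 ± 20.3 times the nuclear one (SD, n = 25 libraries), with a range of 36.9 to 118. Libraries were poly(A)-selected, and mitochondrial transcripts carry short tails, so this ratio holds for these libraries and not for the cell's RNA.

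Levels within the nuclear complexes differed widely. Complex I, the NADH dehydrogenase with the most subunits, had the lowest median over its coding members, 36.91 FPKM. Ndufa4 and Ndufa4l2 are counted with complex I by name, in this and all later values per complex. Complex II, succinate dehydrogenase, had a median of 138.5 FPKM, from Sdhc at 80.89 to Sdhd at 345.8, both membrane anchors. Complex III, the cytochrome bc1 complex, had a median of 127.5 FPKM, with Uqcrq lowest at 56.39 and Uqcrfs1, the Rieske iron-sulfur protein, highest at 239.0. Complex IV had a median of 88.64 FPKM and complex V one of 72.68 FPKM.

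Tissue isoforms of complex IV followed the pattern of a non-muscle tissue. Cox6a1, the general isoform, had a mean level of 477.6 FPKM against 0.1995 for its muscle counterpart Cox6a2. Cox4i1 stood at 278.3 FPKM and the lung isoform Cox4i2 at 0.8537. Cox6b1 stood at 243.9 FPKM and the testis isoform Cox6b2 at 2.941. Cox8a had 289.2 FPKM, and the muscle isoform Cox8b was too low to test. The exception was the pair of Cox7a isoforms, in which the muscle isoform Cox7a1 was measurable, at 22.56 FPKM beside 140.1 for Cox7a2. Ndufa4, known as a cytochrome oxidase subunit despite its name, had 90.53 FPKM and its hypoxia-induced relative Ndufa4l2 had 1.336. The 3 genes of the ATP synthase c-ring, which encode the same mature protein, stood at 28.16 (Atp5mc1), 57.22 (Atp5mc2) and 237.8 FPKM (Atp5mc3).

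The nuclear mean share of counts was highest, and the mitochondrial one lowest, in Control. The nuclear share was 1.93% ± 0.21 in Control (SD, n = 5), 1.59% ± 0.239 for EW, 1.70% ± 0.114 for EW+HMOs, 1.76% ± 0.317 for EW+2'-FL and 1.52% ± 0.153 for EW+LNnT. Mitochondrial members took 6.59% ± 0.688, 7.29% ± 0.577, 7.03% ± 0.437, 7.46% ± 0.9 and 7.06% ± 1.84 in the same order. The ratio of mitochondrial to nuclear member counts was 3.46 in Control and between 4.15 and 4.68 in the weaned groups. These group means were not tested, and the spread within groups was wide.

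Across libraries the nuclear complexes moved together and the mitochondrial genes moved apart from them. As a level for each library, the median over genes of log2 CPM minus the gene's mean over the 25 libraries was taken. The nuclear median was 0.23, 0.00, 0.51, 0.06 and 0.44 in Control 1 to 5, and 0.54, -0.37, -0.29, -0.36 and -0.17 in EW 1 to 5. EW 1 was thus as high as the highest control, and the other 4 EW libraries were below all 5 controls. Among the EW+HMOs libraries the nuclear median stayed between -0.11 and 0.16. In EW+2'-FL it was 0.60 in library 2 and between -0.16 and -0.03 in the other 4, and in EW+LNnT it ran from -0.49 to 0.21.

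The mitochondrial median showed other extremes. It was highest in EW+LNnT 2 at 0.64, EW+2'-FL 1 at 0.53, EW+LNnT 1 at 0.38 and EW 1 at 0.31, and lowest in EW+LNnT 4 and Control 5, both at -0.42. The expression of mt-Co1 was 40720 CPM in EW+2'-FL 1, 44077 in EW+LNnT 1, 44541 in EW+LNnT 2 and 33360 in EW 1, and 18746 to 31418 CPM in the other libraries. T cell markers were low in the first 3 of these libraries, 0.731 to 1.12 CPM in sum. They summed to 3.19 CPM in EW 1, the lowest of the EW libraries, which reached 16.3. Control libraries had 6.41 to 14.7 CPM of these markers and EW+HMOs libraries 13.7 to 24.8. The part of T cells in the mitochondrial levels was not tested.

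**Figure D1:**
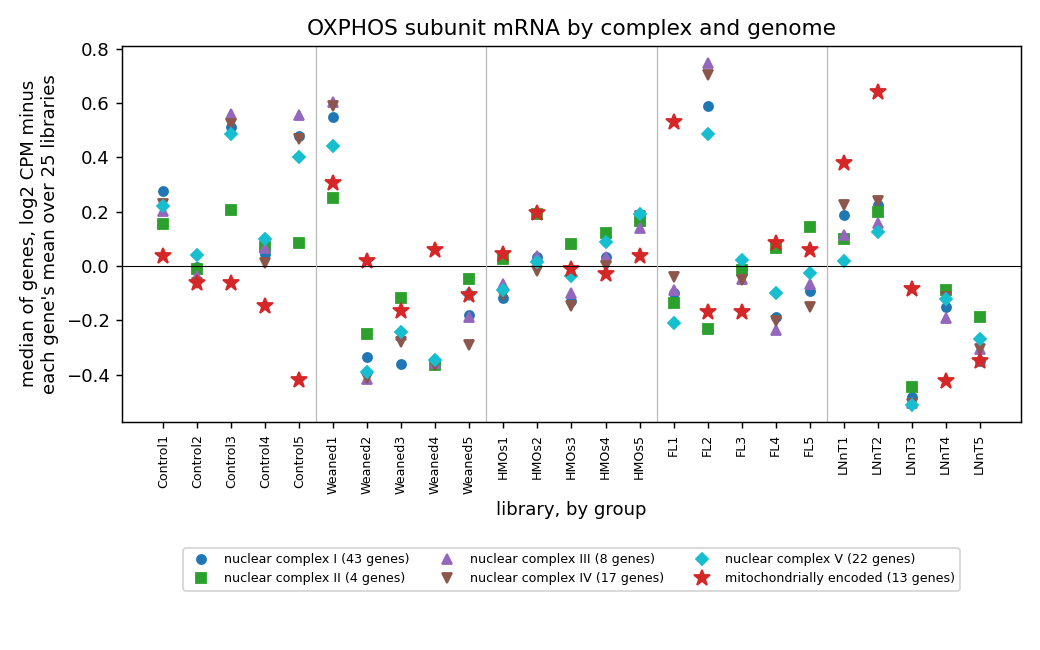
Median over genes of log2 CPM, each gene centred on its mean over all 25 libraries, for the 5 sets of nuclear subunits and the mitochondrially encoded set in each library. The nuclear complexes lie close together in most libraries, with Control 3, Control 5, EW 1 (Weaned1) and EW+2'-FL 2 (FL2) highest, and the mitochondrial set is highest in FL1, LNnT1 and LNnT2.

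Complex II was the nuclear complex that followed least. In EW+2'-FL 2 its median was -0.23 while that of complex I was 0.59, of complex III 0.75 and of complex IV 0.70. With each group's mean removed, log2 CPM of pairs of nuclear coding members (79 genes with a mean of at least 5 CPM) had a median Pearson r of 0.77 over 3081 pairs, with quartiles of 0.51 and 0.91. Between nuclear and mitochondrial members the median r was 0.23 over 1027 pairs, and within the 13 mitochondrial members it was 0.72 over 78 pairs. These coefficients describe 25 libraries that share depth, composition and RNA handling, and carry no test. The nuclear members with the lowest mean r to the others were Ndufs1 at -0.21, Sdha at -0.09, Uqcrc2 at 0.08, Atp5f1a at 0.27, and Atp5f1b and Cox7a1, both at 0.28.

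The libraries with high nuclear subunits also had high short transcripts of other genes. Lengths were taken from the ratio of counts to FPKM. In Control 3, Control 5, EW 1 and EW+2'-FL 2, the medians of the 30 nuclear members under 1000 bases were 0.67, 0.56, 0.58 and 0.74 on the log2 scale. The medians of 153 other genes of that length, with a mean of at least 20 CPM, were 0.45, 0.39, 0.65 and 0.52 in the same libraries. Other genes over 4000 bases were below their means there, at -0.16, -0.15, -0.13 and -0.32. How far transcript length or RNA fragment size has a part in the subunit levels was not tested, and member values for each comparison below are given also without these 4 libraries.

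**Figure D2:**
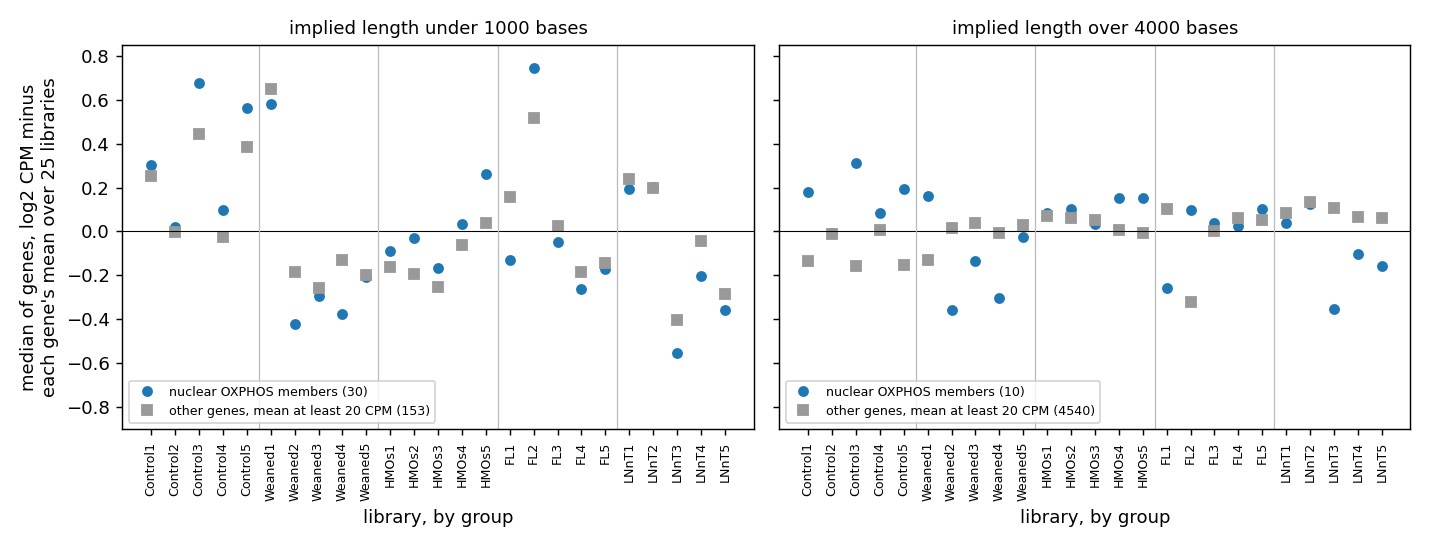
Median of centred log2 CPM per library for nuclear OXPHOS members (circles) and other genes (squares) with an implied length under 1000 bases (left) and over 4000 bases (right). In the short class both kinds of gene are highest in Control3, Control5, Weaned1 and FL2, and in the long class the other genes lie below 0 there.

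Early weaning was the first question of the design, and in EW against Control most nuclear subunits had lower estimates without any one passing the test. Of 94 nuclear members tested, 90 had a log2 change below 0, beside 48.2% of all genes tested, and their median change was -0.32, against 0.02 for all genes. No member was called by edgeR at an adjusted p under 0.05, where 0.953% of all genes were called and 0.511% called lower. At an unadjusted p under 0.05, 25 nuclear members were lower and none higher, beside 6.55% of all genes lower. DESeq2 called 3 nuclear members, all lower, beside 1.36% of all genes. Medians were alike in the complexes: -0.35 in complex I, -0.22 in II, -0.30 in III, -0.27 in IV and -0.35 in V. Without EW 1, edgeR called 14 nuclear members, all lower, beside 1.39% of all genes, and the nuclear median was -0.54. Leaving out EW+2'-FL 1 or EW+2'-FL 2, which enter through the shared spread, gave 2 calls each, and leaving out EW+LNnT 3 gave 1. Shares over all genes are not given for these last fits.

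Estimates were below 0 in short and in long subunits. In EW against Control the median log2 change of nuclear members was -0.38 under 1000 bases and -0.27 over 4000 bases (10 genes). For other genes of at least 20 CPM it was -0.21 under 1000 bases and 0.08 over 4000 bases. Without Control 3, Control 5, EW 1 and EW+2'-FL 2, the median change of the 94 nuclear members was -0.36, with 52 lower at an unadjusted p under 0.05, beside 5.6% of all genes, and 1 called lower, beside 0.37%. Without EW+2'-FL 1, EW+LNnT 1 and EW+LNnT 2 as well, edgeR called 35 nuclear members lower, beside 3.16% of all genes, and 1 mitochondrial member higher.

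The members with the lowest estimates in EW against Control were Cox7a1, Atp5if1 and Ndufb3. Cox7a1 read 19.3, 15.6, 25.7, 17.8 and 24.8 CPM in Control and 12.3, 6.30, 12.1, 8.18 and 11.3 in EW. Every EW library was below every control, and the log2 change was -1.04 ± 0.29 (SE; adjusted p = 0.091, edgeR). Atp5if1, the inhibitor that stops ATP synthase from running in reverse, read 185.2, 151.8, 221.9, 171.8 and 230.6 CPM in Control and 125.4, 92.6, 109.9, 90.7 and 130.3 in EW. The groups did not overlap, and its log2 change was -0.81 ± 0.24 (adjusted p = 0.12, edgeR). These were the 2 nuclear members with all EW libraries below all controls, an arrangement found in 4.97% of all genes tested.

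Ndufb3, an accessory subunit of the complex I membrane arm, overlapped through a single library. It read 46.3, 39.2, 59.4, 49.9 and 64.1 CPM in Control and 45.9, 25.2, 25.4, 25 and 29.3 in EW. EW 1 lay within the control range, and the other 4 were below it. Its log2 change was -0.78 ± 0.21 (adjusted p = 0.071, edgeR).

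Of the mitochondrial members, 11 of 13 had estimates above 0 in EW against Control, with a median log2 change of 0.15 and none called. The highest estimate was that of mt-Nd4l, 0.75 ± 0.26 (adjusted p = 0.18, edgeR). mt-Atp8 was the mitochondrial member whose EW libraries, at 1217 to 1530 CPM, were all above the controls, at 653 to 1206 CPM, which held for 3.52% of all genes tested.

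The combined oligosaccharides were compared with EW to ask what they changed in weaned pups, and no member was called. In EW+HMOs against EW, 67 of 94 nuclear members had estimates above 0, where 53.5% of all genes were below 0, with a median log2 change of 0.12 against -0.02 for all genes. At an unadjusted p under 0.05, edgeR had 4 nuclear members higher and 1 lower, beside 1.58% and 2.58% of all genes. DESeq2, which called no member and 0.23% of all genes, had 7 higher and 1 lower, beside 1.97% and 3.1%. No gene at all was called in this comparison by edgeR (0% of 22131). Without EW 1 the median was 0.30, with 91 of 94 above 0 and 22 higher at an unadjusted p under 0.05, beside 1.91% of all genes. Without the 4 libraries with high short transcripts it was also 0.30, with 42 higher, beside 2.51%, and again none was called. Erythroid markers moved with this comparison: they summed to 3244 CPM in EW 1, 683 to 1640 in the other EW libraries and 221 to 484 in EW+HMOs. DESeq2 called 5 of the 6 lower and edgeR none, with all 6 lower at an unadjusted p under 0.05. In EW against Control DESeq2 called 4 of them higher and edgeR none, with 5 higher at an unadjusted p under 0.05. In EW+2'-FL against EW it called 5 lower. The part of blood RNA in the subunit estimates was not tested.

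Sdha and Atp5f1a were higher in every EW+HMOs library than in every EW library. Sdha, the flavoprotein of succinate dehydrogenase, read 711.2, 756.7, 746.1, 737.4 and 710.7 CPM in EW+HMOs and 584.0, 553.1, 651.4, 550.5 and 686.0 in EW. All 5 EW+HMOs libraries were above all 5 EW libraries and inside the control range of 683.3 to 776.6 CPM. The log2 change was 0.28 ± 0.12 (unadjusted p = 0.036, adjusted p = 1.0, edgeR). Atp5f1a read 2340, 2309, 2267, 2347 and 2303 CPM in EW+HMOs, above the 1676 to 2143 CPM in EW and the 1963 to 2049 CPM in Control.

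Uqcrc1 and Uqcrc2, the core proteins of complex III, were also apart, so that 4 nuclear members were higher in every EW+HMOs library, an arrangement found in 1.38% of all genes. Uqcrc2 read 546.8 to 571.4 CPM in EW+HMOs and 401.5 to 525.3 in EW. Its log2 change was 0.25 ± 0.14 (adjusted p = 1.0, edgeR), and that of Uqcrc1 was 0.27 ± 0.11 with the same adjusted p. The 13 mitochondrial members had a median change of 0.02.

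**Figure D3:**
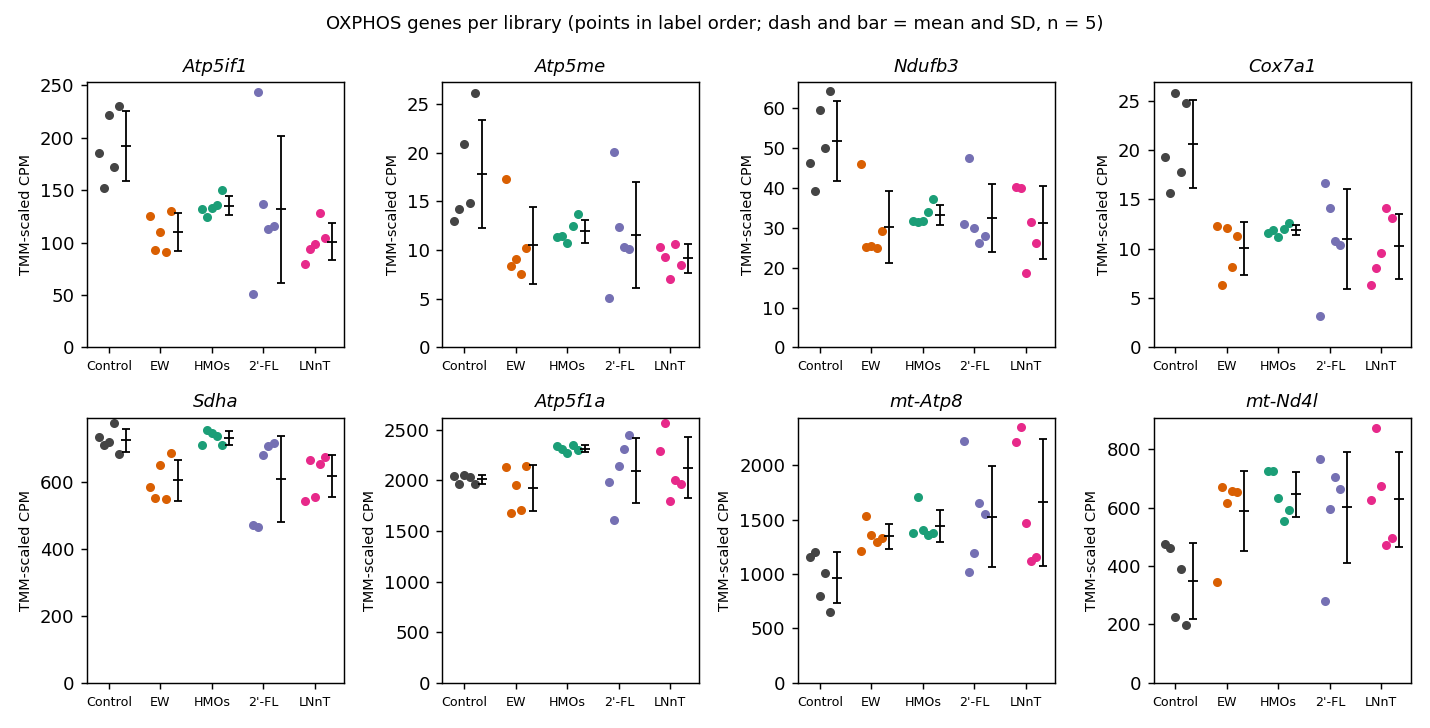
TMM-scaled CPM of 8 members in each library, by group, with the mean and SD of 5 libraries beside the points and each axis starting at 0. Atp5if1, Atp5me, Ndufb3 and Cox7a1 are highest in Control, Sdha is lower in EW than in EW+HMOs, and mt-Atp8 and mt-Nd4l are lowest in Control.

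Neither single oligosaccharide moved a member past the test against EW. In EW+2'-FL against EW, 81 of 94 nuclear members had estimates above 0, where 44.4% of all genes were below 0, with a median log2 change of 0.13. edgeR called no member and no gene (0% of 22131), and 0 members reached an unadjusted p under 0.05, beside 2.52% of all genes higher and 2.9% lower. DESeq2 called no member, beside 0.185% of all genes, and had 1 lower at an unadjusted p under 0.05, beside 3.15%. Without EW 1 the nuclear median was 0.35, with 38 members higher at an unadjusted p under 0.05 in edgeR, beside 4.57% of all genes, and none called. With those 4 libraries left out it was 0.22, with 8 higher, beside 3.2%, and none called. In EW+LNnT against EW the median of nuclear members was -0.02, and 2 were lower at an unadjusted p under 0.05, beside 4.53% of all genes. Neither edgeR nor DESeq2 called a member, where they called 0.172% and 1.81% of all genes. The direction turned without EW 1, to a median of 0.19 with 81 of 94 above 0. Without the 4 libraries the median was 0.18, again with 81 above 0, and 8 were higher at an unadjusted p under 0.05, beside 8.05% of all genes. The mitochondrial medians were 0.04 in both comparisons. Without EW+2'-FL 1, EW+LNnT 1 and EW+LNnT 2, all 13 mitochondrial members had lower estimates in EW+LNnT than in EW, with a median of -0.28, and 2 of them were called, beside 0.424% of all genes called lower. Cox6b2, a weakly expressed isoform, was among the lowest estimates in all 3 comparisons. It read 1.85 to 7.59 CPM in EW, 1.87 to 3.14 in EW+HMOs, 1.22 to 5.96 in EW+2'-FL and 0.805 to 3.88 in EW+LNnT. The groups overlapped, and its log2 changes against EW were -0.87 ± 0.40, -0.79 ± 0.40 and -0.88 ± 0.40, with adjusted p-values of 1, 0.95 and 0.40 in edgeR. Ndufa4l2 read 1.23 to 3.14 CPM in Control and 0.503 to 2.12 in EW+LNnT, with a change of -0.95 ± 0.33 against Control (adjusted p = 0.062, edgeR). These 3 comparisons share the EW libraries, so their values are not independent of each other.

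Against Control, EW+LNnT was the group in which subunits passed the test. edgeR called 11 of 94 nuclear members, all lower, which is 11.7%, beside 3.93% of all genes called lower. It called 2 of 13 mitochondrial members, both higher, beside 6.68% of all genes. Nuclear members below 0 numbered 91 of 94, beside 50.3% of all genes, with a median log2 change of -0.36, against 0.00 for all genes. Calls fell in complex I (4 of 43), complex IV (1 of 17) and complex V (6 of 22), and complexes II and III had none. DESeq2 called 14 nuclear members lower and 2 mitochondrial members higher, beside 5.4% and 10.6% of all genes.

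The 13 calls rested on few libraries. Without Control 3 or Control 5 edgeR called 0, without Control 1 it called 5, and without EW+LNnT 1, 2, 3 or 5 it called 4, 2, 2 and 7. Shares over all genes are not given for these fits, so whether calls fell in other genes too cannot be read from them. Without Control 3, Control 5, EW 1 and EW+2'-FL 2, the 4 libraries with high short transcripts, no member was called. In that fit 0.9% of all genes were called lower and 1.15% higher, beside 3.93% and 6.68% with all libraries. There, 18 nuclear members were lower at an unadjusted p under 0.05, beside 7.84% of all genes, and the nuclear median was -0.18. Without EW+2'-FL 1, EW+LNnT 1 and EW+LNnT 2, 14 nuclear members were called lower, beside 2.89% of all genes. The nuclear median was -0.57 and the mitochondrial median was -0.13. In that fit 1 mitochondrial member was also called lower and none higher, where 3.49% of all genes were called higher. Without all 7 of these libraries, 33 nuclear and 3 mitochondrial members were called, all lower, beside 2.99% of all genes. Members under 1000 bases had a median change of -0.50 and other genes of that length -0.21, while over 4000 bases the medians were -0.24 and 0.20.

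**Figure D4:**
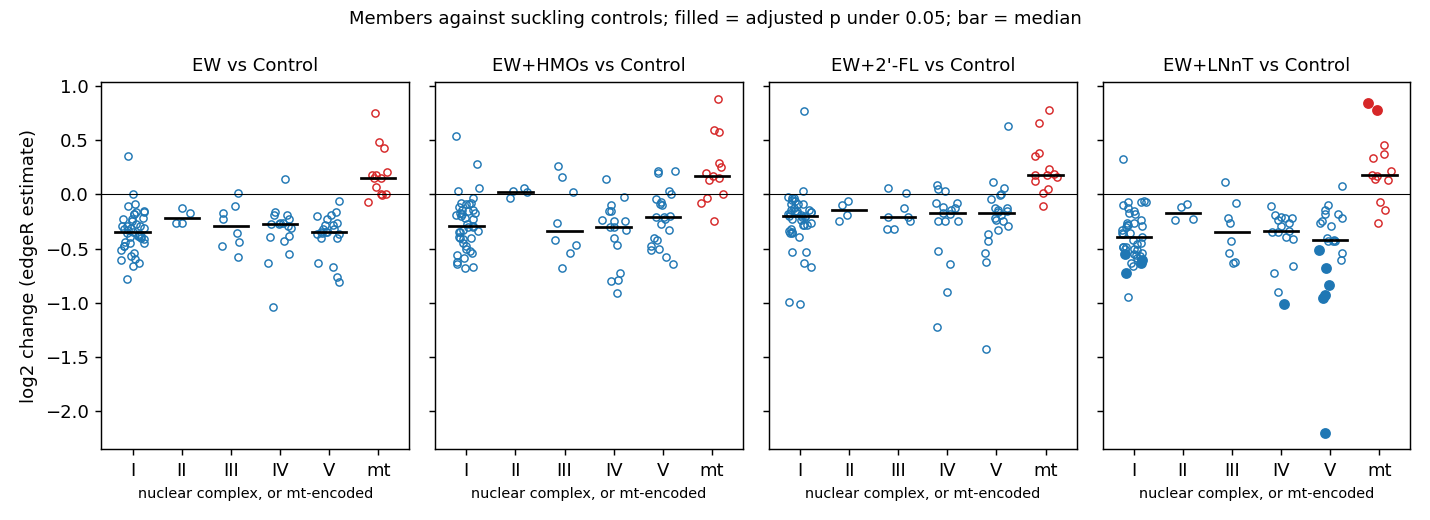
Estimated log2 change of each tested member against Control in the 4 weaned groups, by nuclear complex and for the mitochondrially encoded (mt) set. Bars are medians and filled points have an adjusted p under 0.05, which are found only in EW+LNnT against Control, 11 nuclear genes below 0 and 2 mitochondrial genes above 0.

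In complex V the called genes were the inhibitor and subunits of the membrane part and the stalks. Atp5if1 read 79.4, 94.4, 98.5, 128.2 and 104.7 CPM in EW+LNnT, all below the lowest control at 151.8. Its log2 change was -0.93 ± 0.24 (adjusted p = 0.019, edgeR). Atp5me, the small e subunit at the dimer interface, read 13, 14.2, 20.8, 14.8 and 26.2 CPM in Control and 10.3, 9.25, 7.06, 10.6 and 8.45 in EW+LNnT. The groups did not overlap, and it was 1.95-fold lower (log2 change -0.96 ± 0.27, adjusted p = 0.026, edgeR). Leaving out each library in turn, both genes were called in 21 of 25 fits. For each gene, the 4 fits that lost the call left out a Control or EW+LNnT library. Libraries of the other groups enter this comparison only through the shared spread and scaling, so fits without them test the calls less.

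Other complex V calls were smaller or less stable. Atp5f1e, the epsilon subunit of the central stalk, read 54.7 to 94.4 CPM in Control and 32 to 49.7 in EW+LNnT, with a log2 change of -0.84 ± 0.26. Atp5pf, coupling factor 6 of the peripheral stalk, read 122.6 to 183.7 CPM and 87.6 to 120.8, with a log2 change of -0.51 ± 0.15. Atp5mf, the f subunit, read 147.8 to 216.1 CPM and 89.8 to 126.5, with a log2 change of -0.68 ± 0.22. None of the 3 overlapped between the groups. They were called in 17, 18 and 10 of the 25 fits that left out 1 library. Atp5f1e and Atp5pf lost the call in 8 and 7 fits, all of them without a Control or EW+LNnT library. The sixth, Atp5k-ps2, is a pseudogene of Atp5me with 274 counts in all libraries together, and reads of near-identical copies may be split between such rows and their parent genes.

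In complex I all 4 called genes encode accessory subunits. Ndufb3 read 40.2, 40.0, 18.7, 31.5 and 26.1 CPM in EW+LNnT, with 2 libraries just above the lowest control at 39.2. Its log2 change was -0.73 ± 0.21 (adjusted p = 0.027, edgeR). Ndufc1 read 27.4 to 43.2 CPM in Control and 19.5 to 25.6 in EW+LNnT, and Ndufb2 read 23.8 to 40.7 and 17.1 to 22.9. Neither overlapped between the groups, and their log2 changes were -0.63 ± 0.19 and -0.61 ± 0.20. Ndufb10 overlapped, with 105.1 to 148.9 CPM in Control and 71.7 to 106.8 in EW+LNnT, and had a log2 change of -0.55 ± 0.17. Of the 4, Ndufb2 was called in 6 of 25 fits that left out 1 library, and the others in 17 to 21. Ndufc1, Ndufb10 and Ndufb3 lost the call in 8, 7 and 4 fits, all of them without a Control or EW+LNnT library.

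In complex IV the called gene was Cox7a1. It read 6.32, 8.08, 9.61, 14.1 and 13.1 CPM in EW+LNnT, all below the lowest control at 15.6. It was 2.01-fold lower (log2 change -1.01 ± 0.29, adjusted p = 0.030, edgeR) and was called in 19 of 25 fits. The 6 fits that lost the call each left out a Control or EW+LNnT library. Its lowest library of all was EW+2'-FL 1, at 3.20 CPM, and its values in EW+HMOs lay between 11.2 and 12.6 CPM. The general isoform Cox7a2 had a log2 change of -0.19 ± 0.21 in EW+LNnT against Control and Cox4i1 one of -0.35 ± 0.24, neither past the test. Smooth muscle markers, taken beside this muscle isoform, summed to 421 to 1047 CPM in Control and 393 to 756 in EW+LNnT, and none of the 6 was called. Striated muscle markers summed to 6.44 to 12.7 CPM and 3.92 to 6.64, with Myh4 at 0 in both groups and Mylpf called lower among 5 tested. The part of muscle tissue in the Cox7a1 difference was not tested.

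In total 14 nuclear members were lower in every EW+LNnT library than in every control, an arrangement found in 5.97% of all genes tested. The large subunits Atp5f1a, Ndufs1, Uqcrc2 and Sdha were not among the calls. Atp5f1a read 2292, 2571, 1800, 2005 and 1967 CPM in EW+LNnT, on both sides of the controls, with a log2 change of 0.08 ± 0.12. Ndufs1, the largest core subunit of complex I, had a change of -0.06 ± 0.13 and Uqcrc2 one of 0.11 ± 0.14. Sdha was lower in every EW+LNnT library, at 542.4 to 674.1 CPM, with a change of -0.23 ± 0.12 that did not pass the test (adjusted p = 0.24, edgeR).

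The other comparisons with Control gave estimates in the same range and no calls. In EW+HMOs against Control the nuclear median was -0.25, with 79 of 94 below 0, beside 52.4% of all genes, and 14 lower at an unadjusted p under 0.05, beside 9.32%. edgeR called no member, where 1.85% of all genes were called and 0.935% called lower. DESeq2 called mt-Nd4l alone, higher, beside 3.09% of all genes. Without the 4 libraries with high short transcripts the nuclear median was -0.08, with 64 of 94 below 0, 5 lower at an unadjusted p under 0.05, beside 6.1% of all genes, and none called. In EW+2'-FL against Control the nuclear median was -0.19, with 83 of 94 below 0, beside 45% of all genes, and 12 lower at an unadjusted p under 0.05, beside 7.29%. edgeR called none, where 2.54% of all genes were called and 1.48% called lower. DESeq2 called 3 nuclear members lower and 2 mitochondrial members higher, beside 2.74% and 3.26% of all genes. Without the 4 libraries the nuclear median was -0.17, with 16 lower at an unadjusted p under 0.05, beside 6.67% of all genes, and none called by edgeR. Without EW+2'-FL 2, edgeR called 3 members in the first and 10 in the second of these comparisons, beside 5.07% and 6.45% of all genes. Without EW+2'-FL 1 it called 1 in the first, and without EW 1 or EW+LNnT 3 it called 1 in the second. The fit without EW 1 called 717 of 22581 genes in the second. Shares over all genes are not given for the fits without EW+2'-FL 1 or EW+LNnT 3. All 4 comparisons share the Control libraries, so their estimates are not independent.

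In EW+HMOs, a few nuclear members lay wholly below or wholly above the controls, at shares near or below those of all genes. Of 94 nuclear members, 10 were lower in every EW+HMOs library than in every control (8.24% of all genes). Another 3 were higher (7.9% of all genes). Of the 13 mitochondrial members, 4 were higher in every EW+HMOs library than in every control, beside the same 7.9%, and none lower. Ndufb3 read 31.3 to 37.1 CPM in EW+HMOs, below all controls, with a log2 change of -0.64 ± 0.21 (adjusted p = 0.096, edgeR). Ndufs1 read 231.2 to 261.1 CPM against 190.5 to 214.5 in Control, with a change of 0.28 ± 0.13 (adjusted p = 0.27, edgeR). The median over members was -0.31 under 1000 bases and -0.05 over 4000, and -0.35 and 0.12 for other genes of these lengths.

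The mitochondrial genes showed their clearest differences in mt-Atp8 and mt-Nd4l. Both are short reading frames that lie on one bicistronic mRNA with a longer neighbour, mt-Atp8 with mt-Atp6 of ATP synthase and mt-Nd4l with mt-Nd4 of complex I. Their sequences are shown because the frames overlap: a read within the overlap belongs to both genes. mt-Atp8 occupies MT:7766-7969 on the plus strand and shares 43 of its 204 bases with mt-Atp6, and mt-Nd4l occupies MT:9877-10173 and shares 7 of its 297 bases with mt-Nd4. Capitals mark the bases that are also coding sequence of the neighbour. Sequences are from the GENCODE mouse genome (GRCm38), where these genes have the coordinates given in the deposited table.
mt-Atp8: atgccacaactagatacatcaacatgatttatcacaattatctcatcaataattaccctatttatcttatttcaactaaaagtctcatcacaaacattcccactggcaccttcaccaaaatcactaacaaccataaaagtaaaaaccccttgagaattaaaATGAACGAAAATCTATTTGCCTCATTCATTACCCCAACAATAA
mt-Nd4l: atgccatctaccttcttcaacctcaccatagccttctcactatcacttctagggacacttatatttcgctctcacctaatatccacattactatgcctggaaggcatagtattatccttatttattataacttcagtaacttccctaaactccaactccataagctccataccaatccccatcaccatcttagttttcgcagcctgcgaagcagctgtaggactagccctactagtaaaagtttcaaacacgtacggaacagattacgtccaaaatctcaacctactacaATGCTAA

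mt-Atp8, the small subunit that anchors the stator of ATP synthase, was called higher in EW+LNnT than in Control. It read 1161, 1206, 803, 1013 and 653 CPM in Control and 2212, 2353, 1467, 1124 and 1157 in EW+LNnT. The groups overlapped, with EW+LNnT 4 and 5 inside the control range. The log2 change was 0.78 ± 0.22 (adjusted p = 0.024, edgeR), and the gene was called in 21 of 25 fits that left out 1 library. The call was lost without Control 3, Control 5, EW+LNnT 1 or EW+LNnT 2.

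mt-Nd4l, a small membrane subunit of complex I, was the other call. It read 476.6, 460.3, 226.7, 389.7 and 198.5 CPM in Control and 626.6, 874.4, 674.7, 470.7 and 495.6 in EW+LNnT. EW+LNnT 4 lay below the highest control narrowly, and the rest were above all controls. The log2 change was 0.84 ± 0.26 (adjusted p = 0.039, edgeR), with calls in 19 of 25 fits. The 6 fits that lost the call each left out a Control or EW+LNnT library. Without EW+2'-FL 1, EW+LNnT 1 and EW+LNnT 2 together, neither mt-Nd4l nor mt-Atp8 was called higher, where 3.49% of all genes were. In EW+HMOs against Control, mt-Nd4l read 554.8 to 725.5 CPM and did not overlap with the controls, with a change of 0.88 ± 0.26 that missed the threshold (adjusted p = 0.073, edgeR).

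Set against their neighbours in the same library, mt-Nd4l and mt-Atp8 had lower means in Control than in each weaned group. mt-Nd4l counts were 10%, 9.90%, 5.09%, 8.28% and 5.72% of mt-Nd4 counts in Control 1 to 5. They were 7.00% in EW 1, 7.15% in EW+2'-FL 2 and 11.2% to 13.9% in the other 18 weaned libraries. Control 1, 2 and 4 thus stood between the 4 libraries with high short transcripts and all other weaned libraries. The mean was 7.80% ± 2.30 in Control, 12.1% ± 2.90 for EW, 12.3% ± 1.08 for EW+HMOs, 11.8% ± 2.61 for EW+2'-FL and 13% ± 0.704 for EW+LNnT (SD, n = 5 each).

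By an exact permutation test of the log2 ratio, taken on both sides, EW+HMOs and EW+LNnT against Control each had p = 0.0079, the smallest p that 5 against 5 can give. Adjusted by Benjamini-Hochberg over all 21 tests of 3 neighbour ratios, both were 0.056 in this exact test, which misses 0.05. EW and EW+2'-FL against Control each had p = 0.063 in the same exact test (adjusted 0.22). These ratios were chosen after their values were seen.

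mt-Atp8 counts were 24.1%, 26.0%, 16.5%, 24.2% and 16.8% of mt-Atp6 counts in Control 1 to 5. They were 18.8% in EW 1, 17.3% in EW+2'-FL 2 and 25.9% to 31.6% in the other weaned libraries. The mean was 21.5% ± 4.50 in Control and 29.5% ± 1.19 in EW+LNnT (exact permutation p = 0.0079, adjusted 0.056). In EW+HMOs it was 28.7% ± 1.89, with an exact permutation p of 0.016 against Control and an adjusted p of 0.083. The third ratio, mt-Nd3 to mt-Co3, had its highest mean in Control, 4.05% ± 0.669, with 4.16%, 3.43%, 4.66%, 3.29% and 4.72% in Control, 5.42% in EW 1, 5.03% in EW+2'-FL 2 and 2.90% to 4.71% in the other weaned libraries. The groups overlapped, and against Control its exact permutation p ran from 0.11 to 0.54. The library differences that run with these ratios are those in other short transcripts, and their part in them was not tested.

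**Figure D5:**
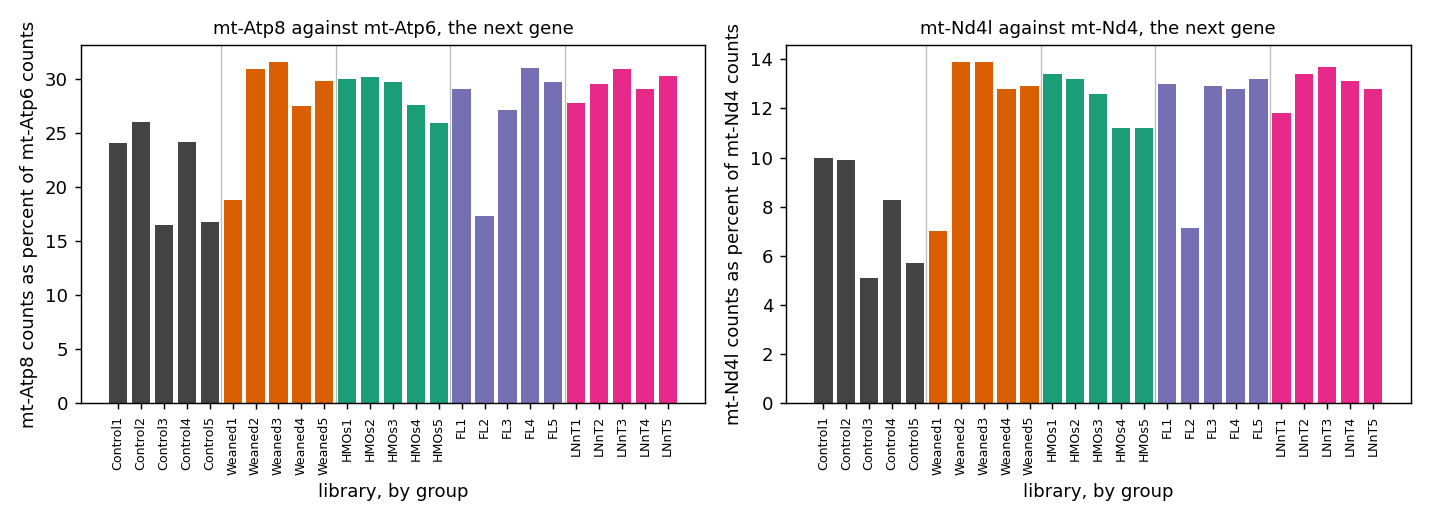
Counts of mt-Atp8 as a percent of mt-Atp6 counts (left) and of mt-Nd4l as a percent of mt-Nd4 counts (right) in each library, coloured by group. Control3, Control5, Weaned1 and FL2 have the lowest bars in both panels, and the other 3 controls lie below most of the weaned libraries.

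The longer mitochondrial genes had no calls. In EW+LNnT against Control, the log2 change was 0.18 ± 0.24 for mt-Nd1, 0.22 ± 0.17 for mt-Nd2, 0.13 ± 0.14 for mt-Nd4 and 0.46 ± 0.26 for mt-Nd5, all of the membrane arm of complex I. It was 0.14 ± 0.23 for mt-Co2, -0.07 ± 0.14 for mt-Co3 and 0.34 ± 0.19 for mt-Atp6. Without the 7 libraries that stood apart, mt-Nd1 and mt-Co2 turned to -0.53 and -0.47. mt-Nd5 read 4540 to 6431 CPM in EW+HMOs, above all controls at 2552 to 4462, with a change of 0.59 ± 0.26 (adjusted p = 0.23, edgeR). In EW+LNnT against Control, mt-Co1 had a log2 change of 0.37 ± 0.21 (adjusted p = 0.26, edgeR) and mt-Cytb, the core of complex III, one of 0.17 ± 0.17. EW+LNnT was split: mt-Cytb read 10072 and 12022 CPM in libraries 1 and 2 and 7344, 5464 and 6070 in libraries 3 to 5, against 5780 to 7946 in Control. mt-Nd6, the one member transcribed from the minus strand, read 1258 and 1873 CPM in libraries 1 and 2 and 906.2, 722.0 and 741.2 in the others, and 1077 to 1519 in Control. The log2 change of mt-Nd6 was -0.26 ± 0.21. It overlaps mt-Nd5 on the other strand, and whether strand was used in counting is not given in the sources used here. mt-Nd3, the lowest member, was highest in EW+2'-FL 2, at 323.2 CPM, and EW 1, at 299.1 CPM.

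The promoters of nuclear members were searched for the motifs of regulators long tied to OXPHOS genes. These were nuclear respiratory factor 1 (NRF1, a GC-rich palindrome), the ETS family with GABPA (CCGGAAGT) and YY1 (AANATGGCG), on both strands in the 300 bases around each RefSeq start in GRCm38.p6. A promoter was found for 67 of the 85 nuclear coding members. NRF1's motif was in 17 of them (25.4%) beside 7.17% of 17491 coding genes, that of YY1 in 10 (14.9%) beside 3.64%, and the ETS motif in 5 (7.46%) beside 5.69%. Any of the 3 motifs was in 30 members (44.8%), beside 15% of coding genes. Of the called genes, Atp5me and Atp5pf held a match, which is a match of letters and not a shown binding site. The promoters of Atp5f1e, Atp5mf, Cox7a1, Ndufb2, Ndufb3, Ndufb10 and Ndufc1, also called, were listed without a match. Another Atp5pf start, with chr16:84835626-84835875 before it, held none. No promoter was listed for Atp5if1 or Atp5k-ps2, which were also called. The 250 bases before the matching starts are shown, with the motif in capitals. They are chr5:108434400-108434649 on the minus strand with NRF1 for Atp5me, and chr16:84834977-84835226 on the minus strand with YY1 for Atp5pf.
Atp5me: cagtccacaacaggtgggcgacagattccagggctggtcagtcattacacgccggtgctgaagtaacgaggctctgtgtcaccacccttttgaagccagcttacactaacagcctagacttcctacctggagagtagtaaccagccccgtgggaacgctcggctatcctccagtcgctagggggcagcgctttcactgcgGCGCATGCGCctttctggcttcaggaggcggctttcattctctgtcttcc
Atp5pf: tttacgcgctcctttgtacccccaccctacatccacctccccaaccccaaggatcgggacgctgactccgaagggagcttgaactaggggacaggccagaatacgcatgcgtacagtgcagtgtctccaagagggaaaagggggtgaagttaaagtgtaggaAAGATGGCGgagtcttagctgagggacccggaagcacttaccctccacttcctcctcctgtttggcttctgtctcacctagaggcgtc

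Lists of genes that build and supply the complexes had most of their calls in the same comparison, EW+LNnT against Control. The mitochondrial ribosome, which translates the 13 mitochondrial mRNAs, had 22 of 78 genes called lower and none higher, with a median log2 change of -0.43, beside 3.93% of all genes called lower. Without the 4 libraries with high short transcripts 6 were called, all lower, beside 0.9% of all genes, and the median was -0.32. Mrps21, a small-subunit protein, had a mean of 28.7 ± 6.28 CPM in Control (SD, n = 5) and 13.3 ± 1.51 in EW+LNnT. Its log2 change was -1.11 ± 0.22 (adjusted p = 0.0061, edgeR), and it was called in every fit that left out 1 library. It was also the ribosomal gene called in EW against Control, with a change of -0.98 ± 0.22 (adjusted p = 0.031, edgeR). Mrpl39 and Mrpl51 of the large subunit changed by -0.54 ± 0.11 and -0.83 ± 0.18.

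Assembly factors, which put the complexes together and are not part of them, had 10 of 50 genes called lower in EW+LNnT against Control. This stands beside 3.93% of all genes, and the median was -0.39. Without the 4 libraries 2 of 50 were called, beside 0.9% of all genes called lower, with a median of -0.31. Coa3, which acts in the first steps of cytochrome oxidase assembly, fell from 70.7 ± 10.8 CPM to 35.4 ± 10.8, a log2 change of -1 ± 0.22 (adjusted p = 0.009, edgeR). Ndufaf1 and Ndufaf3, assembly factors of complex I, changed by -0.83 ± 0.23 and -0.68 ± 0.18. In EW against Control 15 of the 50 were lower at an unadjusted p under 0.05 in edgeR, beside 6.55% of all genes. None was called by edgeR or DESeq2, and the median was -0.24.

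Electron carriers and subunits outside the naming had 5 of 19 genes called lower, beside 3.93% of all genes. Without the 4 libraries 1 was called, Etfb, beside 0.9% of all genes called lower. Etfb, the beta subunit of the flavoprotein that brings electrons from fatty acid oxidation, had 144 ± 25.3 CPM in Control, 91.0 ± 33.3 for EW, 80.4 ± 2.15 for EW+HMOs, 84.3 ± 19.0 for EW+2'-FL and 78.3 ± 14.8 for EW+LNnT. It was called lower in the last 3, with log2 changes of -0.84 ± 0.19, -0.77 ± 0.19 and -0.88 ± 0.19. Coq4, of coenzyme Q synthesis, changed by -1.02 ± 0.26 in EW+LNnT. Cycs, cytochrome c, had 324 ± 24.6 CPM in Control and 298 ± 24.6 in EW+LNnT, a change of -0.12 ± 0.14 that did not pass the test.

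The tricarboxylic acid cycle and pyruvate dehydrogenase list had 1 gene called in each direction among 17. Over all genes, 3.93% were called lower and 6.68% higher. The list had a median of -0.04, and none of it was called without the 4 libraries. Idh2, the mitochondrial NADP-dependent isocitrate dehydrogenase, changed by -0.60 ± 0.17, and Pdhb, of pyruvate dehydrogenase, by 0.55 ± 0.17. Cs, citrate synthase, had 1119 ± 35.7 CPM in EW+HMOs and 770 ± 80.9 in Control, a change of 0.54 ± 0.16 (adjusted p = 0.073, edgeR). Among 21 genes of mitochondrial genome expression, Hsd17b10, a part of mitochondrial RNase P, was called, at -0.53 ± 0.14, beside 3.93% of all genes called lower. Hsd17b10 was not called without the 4 libraries. Tfam, which packages and transcribes the mitochondrial genome, missed the threshold with a log2 change of -0.37 ± 0.13 (adjusted p = 0.06, edgeR).

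Regulators of OXPHOS genes were called in the other direction. Of 9 genes, Ppargc1a, Ppargc1b and Ppara were called higher in EW+LNnT against Control, beside 6.68% of all genes called higher. Of these, Ppargc1a and Ppargc1b were also called without the 4 libraries, beside 1.15% of all genes called higher. Ppargc1a, the coactivator PGC-1alpha, had 54.3 ± 8.46 CPM in Control, 75.4 ± 14.9 for EW, 89.1 ± 17.2 for EW+HMOs, 96.5 ± 30.9 for EW+2'-FL and 95.7 ± 18.8 for EW+LNnT. Its log2 change was 0.82 ± 0.21 in EW+LNnT (adjusted p = 0.017, edgeR) and 0.83 ± 0.21 in EW+2'-FL (adjusted p = 0.032, edgeR). Ppargc1b changed by 0.78 ± 0.22 and Ppara, the fatty acid receptor, by 1.77 ± 0.49 in EW+LNnT. Esrra, the nuclear receptor through which PGC-1alpha acts on many of these genes, had 285 ± 14.3 CPM in Control and 310 ± 16.4 in EW+LNnT, a change of 0.12 ± 0.09 that did not pass the test. In the comparisons with EW, edgeR called no gene of these 6 lists, and DESeq2 called Coa7 of the assembly factors, lower in EW+LNnT.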

How the data were processed

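Poly(A)-selected, strand-marked libraries were read as 150-base pairs, per the labels' protocols. The authors deposited whole-number counts per gene and FPKM per gene for all 25 libraries. The submitters' processing notes list cutadapt 1.9, HISAT2 2.2.1, StringTie 2.1.6, DESeq2, edgeR and the GRCm39 build, with no role or order. The counting program, annotation release and strand setting are not given in the sources used here. Reads shared by pseudogene copies or overlapping genes may be split between rows.

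Counts of 22131 genes passing edgeR's low-count filter were scaled by TMM and tested in 1 quasi-likelihood fit of all 5 groups (edgeR 4.0.16, R 4.3.3), with Benjamini-Hochberg adjustment over all genes and a threshold of 0.05. DESeq2 1.42.0 and limma 3.58.1 were alternatives. Log2 CPM values used a prior count of 2, and the FPKM alternative added 0.1 before log2. Scripts were tested on simulated data. The naming rule took the mitochondrial members, nuclear members called in any comparison, the highest and lowest FPKM of each complex, the 3 largest rises and falls of each comparison among members of at least 1 FPKM, isoform sets, the 3 called genes with the smallest adjusted p of each pathway list, and Ppargc1a, Tfam, Cycs, Cs and Esrra. 1 member that the rule names is not reported here. The lowest levels are given for coding members, and Ndufs1, Uqcrc1, Uqcrc2, Atp5f1b and other genes outside the rule were chosen after their values were seen. Members and lists were chosen with earlier results of these data known. Within a group, Spearman correlations of libraries were 0.907 to 0.95, and no pair was identical.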

Additional observations from a re-analysis of the deposited data

Results flagged for a closer look

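In 32 of 260 sets of 5 libraries examined, 1 library stood apart by a gap of more than 0.71 of the range (Dixon's 95% limit), which chance gives in about 1 set of 20. Sets are not independent, since members move together. Values are CPM, with the range of the other 4 libraries of the group.

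EW 1 stood apart in 16 sets. For complex I it had Ndufb3 at 45.9 (25 to 29.3), Ndufa6 at 149 (51.1 to 60.1) and Ndufa2 at 54.6 (16.2 to 21). Uqcrq of complex III was at 244 (75.1 to 87.3). In complex IV, Cox4i1 was at 773 (332 to 360), Cox6b1 at 268 (128 to 156), Cox7a2 at 189 (102 to 122), Cox7a2l at 298 (132 to 138) and Cox8a at 304 (147 to 157). Ndufa4, counted above with complex I by name, was at 203 (91.2 to 104). In complex V, Atp5me was at 17.3 (7.55 to 10.2), Atp5f1e at 80.5 (33 to 41.3) and Atp5mc2 at 154 (71.9 to 89). Of the mitochondrial genes, mt-Co2 was at 6197 (3467 to 4161) and mt-Nd3 at 299 (122 to 162), while mt-Nd4l was low at 345 (617 to 669).

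EW+2'-FL 2 stood apart in 9 sets, all high. Ndufb3 was at 47.4 (26.1 to 31) and Ndufa2 at 77.1 (19.1 to 29.5). Cox6a1 was at 573 (330 to 360), Cox6b1 at 266 (164 to 174), Cox7a2 at 281 (121 to 136), Cox8a at 313 (160 to 184) and Ndufa4 at 279 (101 to 127). Atp5f1e was at 101 (41.5 to 43.6) and Atp5mf at 245 (83.2 to 128).

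EW+2'-FL 1 was high in mt-Nd1 at 9404 (4779 to 6042), in mt-Co2 at 6465 (3386 to 4182) and in the mitochondrial share of counts, 9.05% (6.86% to 7.24%). Control 5 was low in mt-Nd4 at 3472 (4452 to 4761) and mt-Cytb at 5780 (7469 to 7946). EW+HMOs 2 was high in mt-Atp8 at 1708 (1363 to 1402), and EW+HMOs 5 in Ndufa2 at 27.2 (19.4 to 21.2).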

How the results depend on the processing

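Counts of members called depended most on the test and on single libraries. In EW against Control (0 called), DESeq2 called 3, limma voom with quality weights 78 and fitting the 2 groups alone 3. Dropping EW+2'-FL 1, EW+LNnT 1 and EW+LNnT 2 also gave 3, dropping Control 3, Control 5, EW 1 and EW+2'-FL 2 gave 1, and dropping all 7 gave 36. In EW+HMOs against EW (0), voom called 5. In EW+LNnT against EW (0), 2 were called without the 3 libraries and 2 without the 7, and the mitochondrial median of 0.04 became -0.26 in voom, -0.28 without the 3 and -0.24 without the 7. In EW+HMOs against Control (0), DESeq2 called 1, voom 33 and the 2 groups alone 33, and 4 were called without the 3 and 4 without the 7. In EW+2'-FL against Control (0), DESeq2 called 5, voom 32 and the fit without the 7 called 2. In EW+LNnT against Control (13), voom called 57, the fit without the 4 called 0 and that without the 7 called 36, and the mitochondrial median of 0.18 became -0.10, -0.13 and -0.23 in voom, without the 3 and without the 7. mt-Nd1 and mt-Co2 changed sign there, to -0.53 and -0.47 without the 7. The cause of these shifts was not tested. Shares over all genes also differed by setting: voom called 22.6%, 24.5%, 15.5% and 16.3% of all genes in EW, EW+HMOs, EW+2'-FL and EW+LNnT against Control and 1.08% in EW+HMOs against EW. The 2 groups alone gave 8.23% in EW and 25.1% in EW+HMOs against Control. Without the 3, 4.92% and 7.67% were called in EW and EW+HMOs against Control and 1.29% in EW+LNnT against EW. Without the 7, 2.41% were called in the last of these, and 5.34%, 6.91%, 3.19% and 6.04% were called against Control. The fits without the 4 and without the 7 were chosen after seeing the data.

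Leaving out 1 library gave 0 to 14 calls in EW against Control, 0 to 3 in EW+HMOs, 0 to 10 in EW+2'-FL and 0 to 19 in EW+LNnT against Control, and 0 in the 3 comparisons with EW. Shares over all genes are not set beside these ranges. Nuclear medians ranged from -0.54 to -0.25, -0.32 to -0.17, -0.35 to -0.13 and -0.44 to -0.28 against Control, and from 0.05 to 0.30, -0.02 to 0.35 and -0.11 to 0.19 against EW. Mitochondrial medians ranged from 0.05 to 0.20, 0.13 to 0.20, 0.10 to 0.25 and 0.00 to 0.32 against Control, and from -0.03 to 0.09, -0.06 to 0.13 and -0.07 to 0.16 against EW.

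With the replicate block, 10 members were called in EW+LNnT against Control and 0 in the other 6 comparisons. Shares over all genes are not given for the block fit, so these counts cannot be read as a result about the members. The main fit called 10.6% of all genes in EW+LNnT against Control. No label says whether the numbers pair the samples. Of 50 same-number pairs, 20 had a correlation over 0.1. The median was 0.039 for same-number pairs and 0.0037 for the 200 other pairs. Only 5 of 25 libraries were most like a library of their own number. Pairing by litter or batch was not tested.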
